A study of Mus musculus with 32 samples.

Results

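The genes described here are 31 genes of the cerebral cortex: transcription factors that give excitatory neurons of the cortex their identity, markers of the upper and of the deep cortical layers, and further genes that are richer in cortical excitatory neurons than in most other brain cells. They were taken by name from the gene count tables, which hold 23420 genes, and each of the 31 was present and passed the filter on low counts that left 15589 genes for testing. The study, in a model with home cage, called 174 genes differentially expressed between the genotypes at a false discovery rate of 20%, and these 174 are among the 15589. Below, these are the genes that the study selected. The list of 31 was drawn up with the genotype comparison of these same mice already known, and 14 of its genes were selected by the study from these libraries. Differences between the genotypes are therefore given for these genes as a description. Counts of genes under a p-value threshold are printed only beside the share over all genes, and nothing is read from them.

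The mice were 8 Line 4a congenics, which are C57BL/6J (B6) mice heterozygous for a piece of chromosome 11 from the DBA/2J (D2) strain, and 8 B6 wild-type littermates. All were naïve, meaning that none had received methamphetamine, and all were about 50 days old by the labels. Each genotype held females and males. Striatal punches of the left and right hemispheres were pooled within each mouse, and polyadenylated RNA was sequenced from 1 library per mouse. Line 4a carries many genes besides the one that the study pursued in its D2 segment, so any gene in the segment may differ with genotype. Of the 31 genes, 0 lie between the outermost heterozygous DNA markers of the segment, at 50185512 and 59042857 on chromosome 11 (build mm9). The segment may extend past these markers. The 31 genes are spread over 13 chromosomes.

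Excitatory neurons of the cortex use glutamate, are born in the dorsal telencephalon (the pallium) and settle in layers that differ in where their axons go. Upper layer neurons mostly connect cortical areas with each other, and deep layer neurons send axons to the striatum, thalamus, brainstem and spinal cord. The striatum lies beneath the cortex, receives cortical axons, and consists mainly of inhibitory projection neurons born in the ventral telencephalon. Layer markers are defined by comparison within the cortex and need not be absent from striatal cells. In RNA from a whole punch, fewer cells of a type and less RNA per cell cannot be told apart.

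To show the promoters of genes at both ends of the range, RefSeq windows are printed here for 4 of the 31 genes. Each window runs from 250 bases before to 50 bases after a transcription start on build GRCm38.p6. Among them are a pair of NEUROD factors, the gene whose genotypes did not overlap (*Pcsk1*), and a deep layer gene whose means were nearly equal (*Hs3st4*). *Neurod6* lies on the minus strand with its window at chr6:55681214-55681513, and *Neurod2* on the minus strand at chr11:98329596-98329895. *Pcsk1* lies on the plus strand at chr13:75089607-75089906, and *Hs3st4* on the plus strand at chr7:123982578-123982877. The RefSeq gene records begin earlier, at 75089420 for *Pcsk1* and 123982366 for *Hs3st4*, so both windows lie inside these records. Capitals mark the E-box CAGATG or its reverse complement CATCTG, searched on both strands, a sequence that NEUROD factors can bind.
Neurod6: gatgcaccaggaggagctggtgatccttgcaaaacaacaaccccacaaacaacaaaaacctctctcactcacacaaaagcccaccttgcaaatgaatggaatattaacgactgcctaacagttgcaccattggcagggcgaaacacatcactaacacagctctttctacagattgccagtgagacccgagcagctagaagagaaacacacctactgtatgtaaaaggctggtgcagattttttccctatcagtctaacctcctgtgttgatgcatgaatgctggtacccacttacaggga
Neurod2: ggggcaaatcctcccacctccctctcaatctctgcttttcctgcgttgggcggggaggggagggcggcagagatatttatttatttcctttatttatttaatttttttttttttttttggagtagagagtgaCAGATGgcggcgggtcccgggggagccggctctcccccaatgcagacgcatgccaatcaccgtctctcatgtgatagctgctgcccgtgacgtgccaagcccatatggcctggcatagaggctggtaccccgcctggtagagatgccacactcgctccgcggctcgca
Pcsk1: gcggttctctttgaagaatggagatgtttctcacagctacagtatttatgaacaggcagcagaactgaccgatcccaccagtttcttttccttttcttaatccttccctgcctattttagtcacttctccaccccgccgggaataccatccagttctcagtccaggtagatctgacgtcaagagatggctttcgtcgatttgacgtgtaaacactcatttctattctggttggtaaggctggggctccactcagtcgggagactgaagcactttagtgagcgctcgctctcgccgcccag
Hs3st4: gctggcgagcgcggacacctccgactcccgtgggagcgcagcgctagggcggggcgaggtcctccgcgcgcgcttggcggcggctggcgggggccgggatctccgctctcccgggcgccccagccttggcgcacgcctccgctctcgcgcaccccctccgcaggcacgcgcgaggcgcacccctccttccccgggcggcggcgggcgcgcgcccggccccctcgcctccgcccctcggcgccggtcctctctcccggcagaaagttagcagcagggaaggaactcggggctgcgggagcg

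The E-box occurs once in the *Neurod2* window and in none of the other windows printed. Windows were found by symbol for 25 of the 31 genes and not for 6, and because a gene may have several start sites there were 43 windows in all. The E-box was present in 6 of these 43 windows (13.95%), those of *Cux2*, *Etv1*, *Lamp5*, *Lhx2*, *Mef2c* and *Neurod2*, and in 17.2% of all 32851 windows of the same length. A match describes the letters of the window only, and a window without one says nothing about the factor.

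Sequencing depth was similar in the genotypes, with 19032826 to 33748353 gene counts per mouse in B6 mice and 24912413 to 32085311 in congenics. The lowest of these totals belongs to B6 mouse 7, for which 1 lane file was analysed here. Counting error was small beside the spread between mice: the median counting coefficient of variation over the 31 genes was 3.37%, against a median of 13.4% between B6 mice and 16.6% between congenics. Markers of striatal projection neurons were abundant in every mouse. Summed levels were 5839 to 8607 CPM (library-scaled counts, the unit of all levels here) in B6 mice and 6348 to 7485 CPM in congenics. Of the 12 markers tested, 0 had an edgeR unadjusted p under 0.05 in either direction. Among all genes, 5.14% had such a p with a lower mean in congenics. The study, in its model with home cage, selected 4 of these 12 from these mice: *Adora2a*, *Pdyn*, *Rarb* and *Gpr6*. In the fit here, which held no home cage, their edgeR unadjusted p-values ran from 0.294 (*Adora2a*) to 0.886 (*Gpr6*).

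Some libraries stood apart across the cortical genes. Congenic mouse 2 was the highest of its genotype in 20 of the 31 genes, and congenic mouse 1 was the lowest in 11. Among B6 mice, mouse 3 was the highest in 13 genes and mouse 7 the lowest in 17. Congenic mouse 1 also had the largest share of reads with more than 1 alignment, 27.3%, against at most 21.4% in any other mouse. Each result is given over all 16 mice, with the value without congenic mice 1 and 2 beside the summary of the list.

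Over the whole list, 28 of the 31 genes had a lower mean in congenics and 3 had a higher one, with a median log2 fold change (congenic over B6) of −0.38. Among the 15589 genes, lower congenic means made up 45.1%, and their median was 0.01. The values ran from −0.82 for *Neurod1* to 0.02 for *Cux1*. In edgeR's quasi-likelihood test, 19 of the 31 genes had an unadjusted p under 0.05, each with a lower mean in congenics, while 5.14% of all genes did so in that direction. At a false discovery rate (FDR) of 5%, edgeR called 0 of the 31 and 1 of all 15589 genes (0.00641%), and DESeq2 called 6 of the 31 and 25 of all genes. At an FDR of 20%, edgeR called 0 of the 31 and 0.0192% of all genes. The lowest FDR among the 31 was 0.292 in edgeR. These counts describe a list that was assembled with this contrast in view and support nothing further.

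Leaving out congenic mice 1 and 2 together, a choice made after their values were seen, moved the median to −0.41, kept the number with a lower mean at 28, and brought 10 of the 31 genes to an FDR of 5%, while the number over all genes went from 1 to 53. Without congenic mouse 2 alone the median was −0.44, and without B6 mouse 7 alone it was −0.40. The 14 genes that the study selected had a median of −0.48 and the other 17 a median of −0.10. All 14 selected genes and 14 of the other 17 had lower means in congenics, and because the 14 were selected on these mice their direction is not independent evidence.

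**Figure D1:**
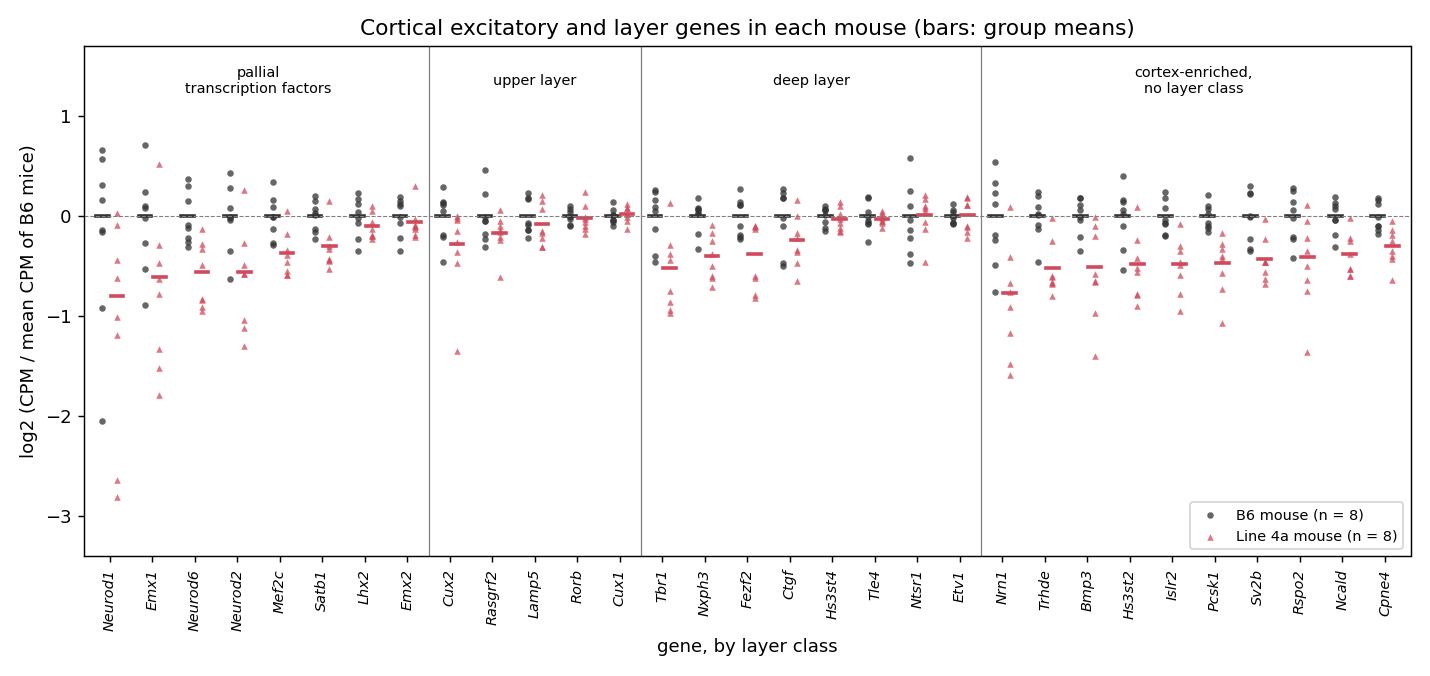
Expression of each of the 31 cortical genes in each mouse, as log2 of its CPM over the mean CPM of the B6 mice (y axis), by gene and class (x axis); circles are B6 mice, triangles are Line 4a mice (8 of each), and bars are group means. The Line 4a bar lies below the B6 bar in 28 genes, and the points of the genotypes do not overlap in *Pcsk1*.

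The number of congenics below the B6 median gives the same comparison mouse by mouse. In 10 of the 31 genes all 8 congenics lay below the B6 median, as in 4.34% of all genes, and in a further 13 genes 7 of the 8 did. Over all genes, 7 or 8 congenics lay below the B6 median in 13.8%. Every congenic was below every B6 mouse in 1 of the 31, *Pcsk1*, and in 0.0257% of all genes. By size, 18 of the 31 genes had a log2 fold change under −0.3, as had 3.30% of all genes, 5 lay between −0.3 and −0.1, and 8 lay within 0.1 of 0. Those 8 were *Emx2*, *Cux1*, *Rorb*, *Lamp5*, *Etv1*, *Tle4*, *Ntsr1* and *Hs3st4*, of which 7 are layer markers.

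The first class holds 8 transcription factors of the pallium and its neurons. All 8 had lower means in congenics, with a median log2 fold change of −0.46, and 3 of the 8 were selected by the study from these mice. Their mean log2 CPM was 3.98 ± 0.30 in B6 mice and 3.54 ± 0.36 in congenics (SD, n = 8 each). Per mouse, 7 of the 8 congenics lay below the B6 median of this mean and 3 lay below every B6 mouse. *Satb1* and *Mef2c*, placed in this class, are also used by neurons outside the cortex.

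*Neurod6*, a basic helix-loop-helix factor of differentiating and mature excitatory neurons, ranged from 16.6 to 26.8 CPM in B6 mice with a median of 19.2 CPM. In congenics it ranged from 10.7 to 18.9 CPM with a median of 13.2 CPM. All 8 congenics were below the B6 median, and 6 of them were below every B6 mouse. The means were 20.7 ± 3.91 CPM in B6 mice and 14 ± 3.18 CPM in congenics (SD, n = 8 each). The log2 fold change was −0.56 ± 0.13 (SE), or a level 1.48-fold lower. *Neurod2*, a related factor, whose promoter holds the E-box shown above, ranged from 13.2 to 27.5 CPM (median 20.3 CPM) in B6 mice and from 8.33 to 24.4 CPM (median 13.7 CPM) in congenics. The genotypes overlapped widely in this gene, and congenic mouse 2, at 24.4 CPM, was above all but 2 of the B6 mice. Its log2 fold change was −0.56 ± 0.19 (SE), and −0.72 without congenic mouse 2.

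*Neurod1*, which acts earlier in the same family, was the least abundant of the 31 genes, with 0.420 to 2.73 CPM (median 1.76 CPM) in B6 mice and 0.247 to 1.77 CPM (median 0.996 CPM) in congenics. It rested on 8 to 91 counts per mouse and had the largest fold difference and the largest error of the list, −0.82 ± 0.36 (SE). Leaving out single mice moved this value between −0.99 and −0.67. Some 355 bases of its annotated exons (GENCODE, build mm9) are shared with another gene. The deposited counts were made on mm10, and whether reads over these bases were left out of them was not checked.

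*Emx1*, a homeobox gene that marks the progenitors of cortical excitatory neurons, ranged from 1.63 to 4.95 CPM (median 3.08 CPM) in B6 mice and from 0.872 to 4.34 CPM (median 1.86 CPM) in congenics. Its upper congenic value, again from mouse 2, stood far above the rest of its genotype. The log2 fold change was −0.62 ± 0.28 (SE) over all mice, −0.88 without congenic mouse 2 and −1.01 without congenic mice 1 and 2. *Emx2*, its paralogue, ranged from 5.14 to 7.46 CPM in B6 mice and from 5.65 to 8.03 CPM in congenics, with a log2 fold change of −0.07 ± 0.09 (SE). In *Emx2*, 7 of the 8 congenics were below the B6 median, but none was below every B6 mouse.

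*Mef2c*, a MADS-box factor that shapes excitatory synapse number, was the most abundant of the class, with 190.2 to 293 CPM (median 231 CPM) in B6 mice and 154 to 241 CPM (median 173 CPM) in congenics. Its log2 fold change was −0.36 ± 0.10 (SE), and 6 congenics lay below every B6 mouse. *Satb1*, a chromatin organiser, ranged from 45.8 to 61.7 CPM (median 54.4 CPM) in B6 mice and from 37.1 to 59.6 CPM (median 41.3 CPM) in congenics. For *Satb1* as well 6 congenics lay below every B6 mouse, and the log2 fold change was −0.30 ± 0.09 (SE). *Lhx2*, a LIM homeobox gene that sets cortical fate in the embryo, was nearly level between genotypes at 27.5 ± 3.69 CPM in B6 mice and 25.6 ± 2.27 CPM in congenics (SD, n = 8 each).

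The second class, 5 markers of the upper layers, had small differences. The median log2 fold change was −0.08, and 4 of the 5 genes had lower means in congenics. Of these 5, 0 were selected by the study from these mice. Mean log2 CPM over the class was 5.78 ± 0.10 in B6 mice and 5.67 ± 0.12 in congenics (SD, n = 8 each).

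*Cux2*, a homeobox gene of upper layer neurons, ranged from 24.4 to 40.8 CPM (median 35.4 CPM) in B6 mice and from 13.1 to 33.4 CPM (median 29.0 CPM) in congenics. All 8 congenics lay below the B6 median, and congenic mouse 1, at 13.1 CPM, lay far below the others. The log2 fold change was −0.28 ± 0.15 (SE), and −0.18 without congenic mouse 1. Its paralogue *Cux1* ranged from 68.8 to 81.2 CPM in B6 mice and from 67.2 to 79.9 CPM in congenics, a log2 fold change of 0.02 ± 0.04 (SE). *Cux1* is expressed in many cell types, and 394 bases of its annotated exons are shared with another gene.

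*Rorb*, a nuclear receptor known as a marker of layer 4, was almost equal, at 31.8 ± 1.56 CPM in B6 mice and 31.5 ± 3.08 CPM in congenics (SD, n = 8 each). *Lamp5*, a membrane protein of upper layer neurons and of a class of interneurons, ranged from 91.7 to 124.6 CPM in B6 mice and from 85.6 to 122.8 CPM in congenics, and congenic mouse 1 was its highest congenic. *Rasgrf2*, an exchange factor for Ras, ranged from 49.7 to 84.7 CPM (median 59.5 CPM) in B6 mice and from 40.5 to 64.4 CPM (median 55.8 CPM) in congenics. The genotypes overlapped in all 3 of these genes, and the *Rasgrf2* log2 fold change of −0.17 ± 0.10 (SE) moved to −0.09 without B6 mouse 2, its highest mouse.

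The third class, 8 markers of the deep layers, was mixed. The median log2 fold change was −0.13, and 6 of the 8 genes had lower means in congenics. The lowest 3 were *Tbr1*, *Nxph3* and *Fezf2*, each of which belongs to the genes the study selected from these mice.

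*Tbr1*, a T-box factor required for layer 6 neurons, ranged from 33.8 to 55.8 CPM (median 49.0 CPM) in B6 mice and from 23.8 to 50.9 CPM (median 31 CPM) in congenics. Its log2 fold change was −0.52 ± 0.15 (SE), and −0.64 without congenic mouse 2, the mouse at 50.9 CPM. *Fezf2*, a zinc finger gene that specifies layer 5 neurons projecting to the spinal cord and brainstem, ranged from 6.01 to 8.48 CPM (median 7.07 CPM) in B6 mice and from 3.99 to 6.58 CPM (median 5.54 CPM) in congenics. All 8 congenics were below the B6 median of *Fezf2*, 4 of them were below every B6 mouse, and the log2 fold change was −0.38 ± 0.12 (SE). *Nxph3*, a secreted neurexin ligand of the deepest cortical neurons, ranged from 11.2 to 15.9 CPM (median 14.6 CPM) in B6 mice and from 8.63 to 13.2 CPM (median 10.4 CPM) in congenics, with a log2 fold change of −0.40 ± 0.09 (SE). For *Nxph3* as well all 8 congenics were below the B6 median.

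*Ctgf* (now named *Ccn2*), a secreted matrix protein that marks subplate neurons, ranged from 8.49 to 14.5 CPM (median 12.7 CPM) in B6 mice and from 7.63 to 13.3 CPM (median 9.90 CPM) in congenics. Its log2 fold change was −0.24 ± 0.13 (SE), with 7 of the 8 congenics below the B6 median.

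The other 4 deep layer genes had nearly equal means. *Tle4*, a corepressor of layer 6, was at 106.6 ± 10.7 CPM in B6 mice and 104.7 ± 4.17 CPM in congenics (SD, n = 8 each). *Etv1*, an ETS factor of layer 5, was at 70.2 ± 3.67 CPM and 70.7 ± 7.96 CPM, and *Hs3st4*, a heparan sulfate sulfotransferase of layer 6, at 93.6 ± 5.90 CPM and 91.6 ± 7.38 CPM, in the same order. The log2 fold changes of these 3 genes lay between −0.03 and 0.01, with standard errors of 0.05 to 0.06. *Ntsr1*, the neurotensin receptor of neurons that project from layer 6 to the thalamus, ranged from 3.36 to 6.92 CPM in B6 mice and from 3.37 to 5.37 CPM in congenics, a log2 fold change of 0.00 ± 0.14 (SE).

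Upper and deep layer markers kept a similar balance in the genotypes. The mean log2 CPM of the 5 upper layer genes exceeded that of the 8 deep layer genes by 1.12 ± 0.10 in B6 mice and by 1.21 ± 0.15 in congenics (SD, n = 8 each). The B6 values ran from 0.99 to 1.29 and the congenic values from 0.92 to 1.42, so the genotypes overlapped over the whole B6 range.

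The last class holds 10 genes that are enriched in cortical excitatory neurons without marking 1 layer. All 10 had lower means in congenics, with a median log2 fold change of −0.48, and 8 of the 10 were selected by the study from these mice. Mean log2 CPM over the class was 4.94 ± 0.19 in B6 mice and 4.45 ± 0.22 in congenics (SD, n = 8 each). Of the 8 congenics, 7 lay below every B6 mouse in this mean, and the exception was mouse 2.

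*Pcsk1* encodes a convertase that cuts peptide precursors in secretory vesicles, and a promoter window of this gene is printed above. It measured 11.2, 12.8, 11.6, 10.3, 11.8, 9.88, 10.2 and 10.5 CPM in B6 mice 1 to 8, and 5.27, 7.44, 8.79, 8.36, 6.64, 9.85, 9.10 and 8.19 CPM in congenic mice 1 to 8. The highest congenic and the lowest B6 mouse differed by very little, 9.85 against 9.88 CPM, so the separation rests on a narrow gap. The means were 11.04 ± 0.990 CPM and 7.96 ± 1.47 CPM (SD, n = 8 each), a log2 fold change of −0.47 ± 0.10 (SE), and −0.38 without congenic mice 1 and 2.

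Among genes for secreted or surface proteins, *Nrn1*, an anchored protein that promotes neurite growth and synapse maturation, ranged from 30.2 to 74.4 CPM (median 50.4 CPM) in B6 mice and from 17.0 to 54.6 CPM (median 28.7 CPM) in congenics. It had the second largest difference of the list, with a log2 fold change of −0.77 ± 0.22 (SE), and −0.94 without congenic mouse 2. *Bmp3*, a ligand of the bone morphogenetic protein family, ranged from 3.04 to 4.40 CPM (median 3.94 CPM) in B6 mice and from 1.47 to 3.85 CPM (median 2.54 CPM) in congenics, with a log2 fold change of −0.51 ± 0.16 (SE). *Rspo2*, a secreted enhancer of Wnt signalling, ranged from 5.56 to 9.05 CPM (median 7.55 CPM) in B6 mice and from 2.91 to 8.03 CPM (median 5.56 CPM) in congenics, with a log2 fold change of −0.41 ± 0.16 (SE). In both ligand genes the genotypes overlapped, with all 8 congenics below the B6 median for *Bmp3* and 7 of 8 for *Rspo2*.

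*Islr2*, a leucine-rich repeat protein of growing axons, ranged from 33.8 to 45.8 CPM (median 37.4 CPM) in B6 mice and from 20.04 to 36.8 CPM (median 27.9 CPM) in congenics. All congenics but mouse 2 were below every B6 mouse in this gene, and the log2 fold change was −0.48 ± 0.10 (SE). *Trhde*, a surface enzyme that degrades thyrotropin-releasing hormone, ranged from 10.5 to 17.1 CPM (median 14.6 CPM) in B6 mice and from 8.28 to 14.2 CPM (median 9.26 CPM) in congenics, with a log2 fold change of −0.52 ± 0.11 (SE). *Hs3st2*, a heparan sulfate sulfotransferase like the deep layer gene *Hs3st4*, ranged from 16.2 to 31.02 CPM (median 24.2 CPM) in B6 mice and from 12.7 to 25.1 CPM (median 16.2 CPM) in congenics. Its log2 fold change of −0.48 ± 0.14 (SE) stands beside −0.03 ± 0.05 (SE) for *Hs3st4*, although the difference between the related genes was not tested.

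The remaining genes of the class encode synaptic and calcium-binding proteins. *Sv2b*, a synaptic vesicle protein, ranged from 216 to 339.8 CPM (median 275 CPM) in B6 mice and from 172 to 269.8 CPM (median 200.3 CPM) in congenics. *Ncald*, a neuronal calcium sensor, ranged from 204 to 288 CPM (median 257 CPM) in B6 mice and from 167 to 250.3 CPM (median 185 CPM) in congenics. *Cpne4*, a copine that binds membranes when calcium rises, ranged from 49.7 to 63.8 CPM (median 54.1 CPM) in B6 mice and from 36.0 to 54.2 CPM (median 45.6 CPM) in congenics. Their log2 fold changes were −0.43 ± 0.11 for *Sv2b*, −0.38 ± 0.09 for *Ncald* and −0.30 ± 0.08 for *Cpne4* (SE). For *Sv2b* and *Ncald* all 8 congenics lay below the B6 median, and for *Cpne4* 7 of 8 did.

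Levels can be compared between genes only per length of transcript. In B6 mice, mean CPM per kilobase of annotated exon (GENCODE, build mm9) was highest for *Sv2b* at 48.4, *Lamp5* at 36.3, *Ncald* at 36.2, *Mef2c* at 31.3 and *Hs3st4* at 29.3. The lowest levels were those of *Neurod1* at 0.636, *Ntsr1* at 1.18, *Bmp3* at 1.24 and *Emx1* at 1.38 CPM per kilobase. The abundant genes thus included both genes with equal means in the genotypes, such as *Hs3st4*, and genes with lower means in congenics, such as *Sv2b*.

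**Figure D2:**
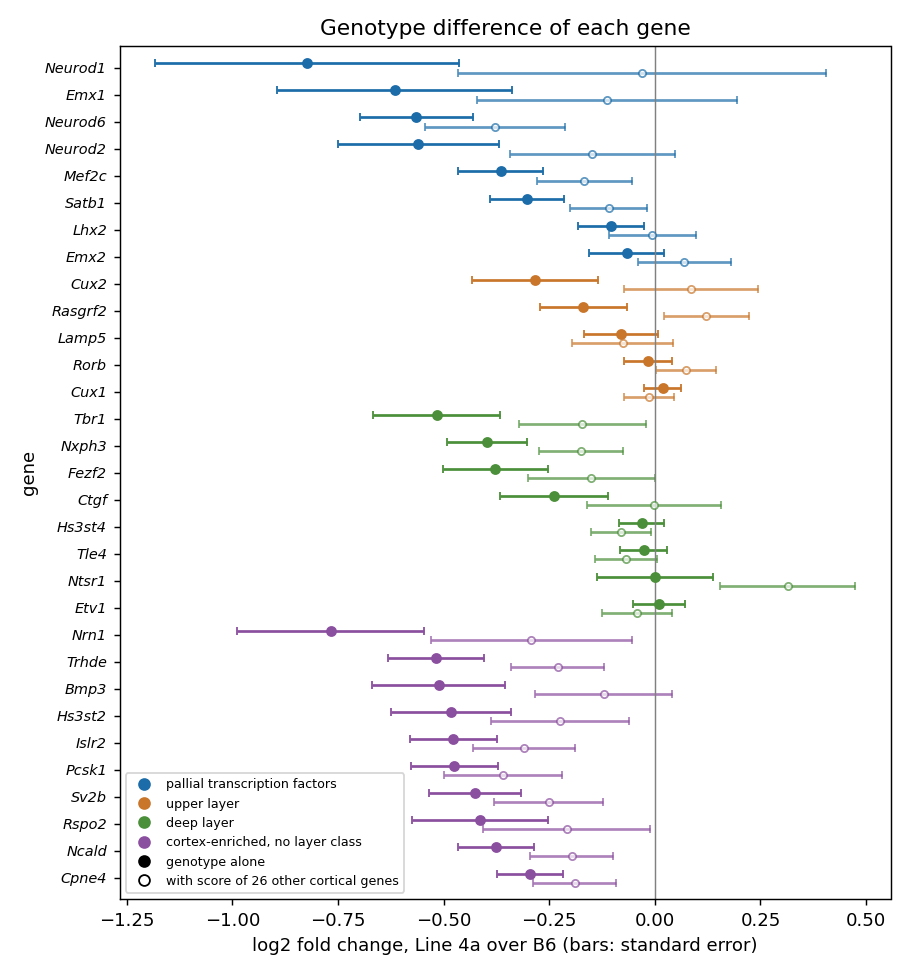
Log2 fold change of Line 4a over B6 (x axis) for each of the 31 cortical genes (y axis), coloured by class, with bars of 1 standard error; filled points are from the fit with genotype alone and open points from the fit that also held the score of 26 other cortical genes. The filled points run from −0.82 (*Neurod1*) to 0.02 (*Cux1*), and 25 of the 31 open points lie closer to 0 than the filled ones.

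Within a genotype, some mice were high or low across much of the list. Among congenics, mouse 2 was above its genotype's median in 27 of the 31 genes and mouse 8 in 6. Among B6 mice, mouse 2 was above the median in 27, mouse 3 in 24, mouse 4 in 4 and mouse 7 in 2. The mean log2 CPM over all 31 genes, relative to the B6 mean, ran from −0.33 (mouse 7) to 0.19 (mouse 3) in B6 mice and from −0.55 (mouse 7) to 0.04 (mouse 2) in congenics. All 8 congenics were below the B6 median of this mean and 5 were below every B6 mouse.

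Libraries of mice 1 to 4 of each genotype ran on lanes 5 and 6 and those of mice 5 to 8 on lanes 7 and 8, so the genotype difference can be taken within each lane pair from 4 mice per genotype. These are the same mice whose genotype difference was known when the genes were chosen, so the direction within a lane pair is a description. In each lane pair 28 of the 31 genes had a lower mean in congenics, and the median log2 fold change was −0.38 in lanes 5 and 6 and −0.33 in lanes 7 and 8. Which genes lay above 0 was not the same, and 4 genes, *Emx2*, *Lamp5*, *Etv1* and *Ntsr1*, had opposite signs in the lane pairs. The choice of genes did not use the difference between the lane pairs. In edgeR's quasi-likelihood test of this interaction of genotype with lane pair, 0 of the 31 genes had an unadjusted p under 0.05, as did 1.88% of all genes, and 0 genes of all those tested passed an FDR of 5%.

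The smallest interaction p-values of the list belonged to *Ntsr1* and *Bmp3*. *Ntsr1* had log2 fold changes of −0.24 in lanes 5 and 6 and 0.26 in lanes 7 and 8 (edgeR unadjusted p = 0.0614, FDR 0.950). *Bmp3* had −0.81 and −0.24 (edgeR unadjusted p = 0.0744, FDR 0.950). Neither difference between the lane pairs passed an FDR of 5%, and over the 31 genes the difference ran from −0.55 to 0.58 on the log2 scale.

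**Figure D3:**
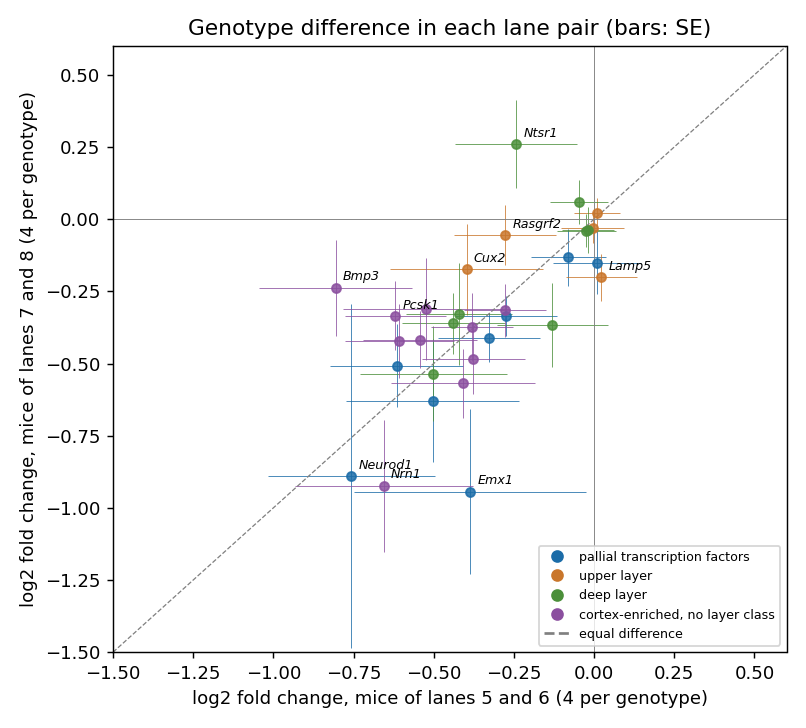
Log2 fold change of Line 4a over B6 in the mice of lanes 5 and 6 (x axis) against that in the mice of lanes 7 and 8 (y axis), each from 4 mice per genotype, for the 31 cortical genes coloured by class; bars are standard errors and the dashed line marks equal differences. In each lane pair 28 of the 31 points lie below 0, and *Ntsr1* lies farthest above the dashed line among the layer markers.

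A second list held 26 other cortical excitatory and layer genes, of which 5 are among the genes selected by the study. It was also drawn up with results of these mice known and is no independent check. Of these, 20 had lower and 6 had higher means in congenics, with a median log2 fold change of −0.09. In edgeR's quasi-likelihood test 9 of the 26 had an unadjusted p under 0.05, all lower in congenics, where 5.14% of all genes were called in that direction. At an FDR of 5%, 0 of the 26 passed with edgeR and 0 with DESeq2, which called 1 and 25 of all genes. When congenic mice 1 and 2 were left out, 4 of the 26 and 53 of all genes passed with edgeR. Among the 21 genes that the study did not select, 15 had lower means and 5 had an unadjusted p under 0.05.

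The 7 genes of this second list that are shared by excitatory neurons of all layers had a median log2 fold change of −0.48, the 6 upper layer genes 0.09 and the 13 deep layer genes −0.08. *Slc17a7*, the vesicular glutamate transporter of cortical neurons, which the study selected from these mice, was at 415 ± 81.9 CPM in B6 mice and 268 ± 82.2 CPM in congenics (SD, n = 8 each), and its log2 fold change was −0.63 ± 0.17 (SE). Other shared genes with an unadjusted p under 0.05 included *Nptx1*, a pentraxin of excitatory synapses that the study also selected, at −0.48 ± 0.13 (SE) and *Slc30a3*, the zinc transporter of glutamatergic vesicles, at −0.69 ± 0.28 (SE).

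Among layer markers of the second list, *Unc5d*, a netrin receptor of upper layer neurons, had a log2 fold change of −0.43 ± 0.11 (SE; edgeR unadjusted p = 0.00113, FDR 0.331). The deep layer genes under an unadjusted p of 0.05 were *Rprm* at −0.34 ± 0.15, *Cplx3* (selected by the study) at −0.31 ± 0.08, *Ldb2* at −0.24 ± 0.08 and *Moxd1* at −0.18 ± 0.08 (log2 fold changes with SE). The abundant genes *Zbtb18*, at −0.15 ± 0.08, and *Syt6*, a deep layer synaptotagmin at 0.01 ± 0.07, did not pass even the unadjusted threshold. In this second list the genes shared by all layers had a lower median than the layer markers, a comparison for which no test was made. The study selected 3 of the 7 shared genes, 0 of the 6 upper layer genes and 2 of the 13 deep layer genes. In both lists, class medians are therefore not independent of that selection.

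A score of each mouse, the mean standardized log2 CPM of those 26 genes, was 0.25 ± 0.30 in B6 mice and −0.25 ± 0.29 in congenics (SD, n = 8 each), with congenic mouse 2 the highest congenic at 0.33. When this score entered the fit beside genotype, the median log2 fold change of the 31 genes was −0.12. In this fit 26 of the 31 genes were lower in congenics, as were 7962 of all 15589 genes, and 25 of the 31 were closer to 0 than before. An unadjusted p under 0.05 in edgeR's quasi-likelihood test was found for 3 of the 31 genes and for 576 of all genes. The class medians were then −0.11 for the transcription factors, 0.073 for the upper layer, −0.07 for the deep layer and −0.23 for the genes without a layer class. Genotype and score were themselves related in these mice, so the parts of the difference that go with each cannot be told apart.

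**Figure D4:**
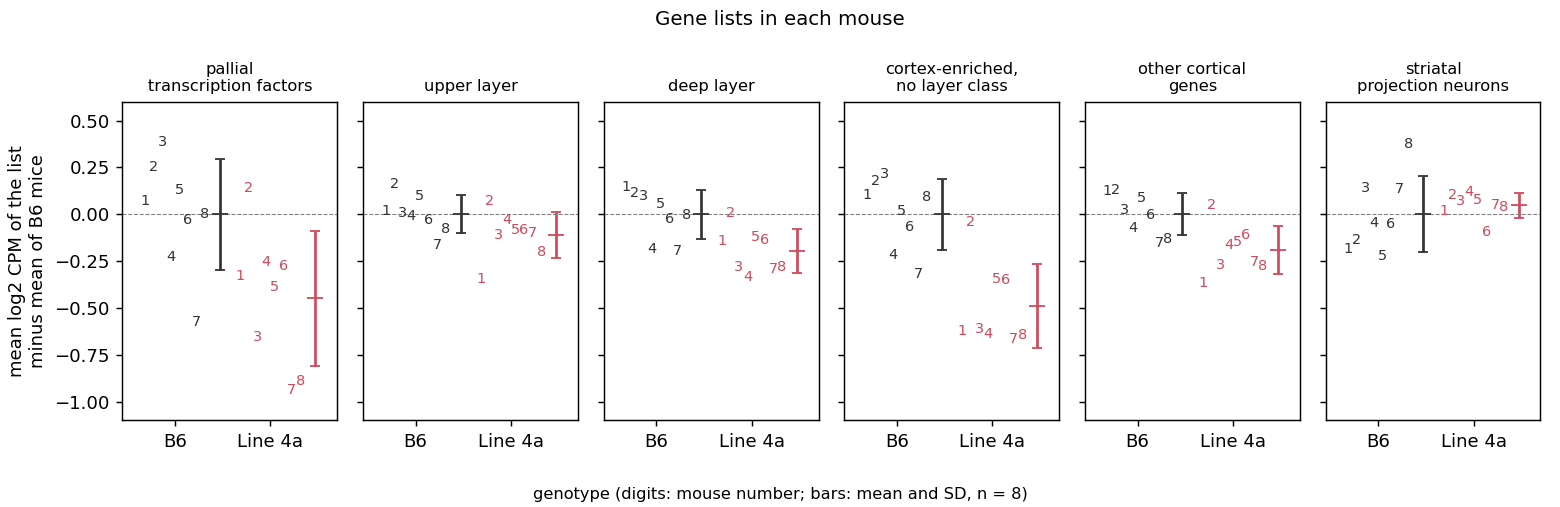
Mean log2 CPM of each class of the 31 genes, of 26 other cortical genes and of markers of striatal projection neurons, minus the mean of the B6 mice (y axis), in each mouse by genotype (x axis); digits are mouse numbers and bars show the mean and SD of 8 mice. Line 4a mouse 2 lies above the other Line 4a mice in the transcription factors, and the genotypes overlap in the markers of striatal projection neurons.

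Markers of the other cells that the punch could hold moved as follows, and their part in the differences above was not tested. The 6 markers of the claustrum and lateral cortex, tissue that adjoins the striatum, all had lower means in congenics, with a median log2 fold change of −0.23, and their summed level was 522 to 669 CPM in B6 mice and 460 to 536 CPM in congenics. Of these 6, 4 had an unadjusted p under 0.05 with a lower mean, against 5.14% of all genes. Of those 4, *Nr4a2*, *Ntng2* and *Gng2* were selected by the study from these mice. None of the 6 was at 0 in every mouse, and *Gnb4*, a G protein subunit outside the study's selection, was at −0.21 ± 0.05 (SE; edgeR unadjusted p = 0.000725, FDR 0.331). Median log2 fold changes were 0.04 for striatal projection neurons (12 genes), −0.06 for GABAergic interneurons (6), 0.08 for oligodendrocytes (8), 0.05 for astrocytes (6), 0.09 for microglia (6), 0.11 for endothelium (4), 0.11 for thalamus (4), −0.14 for hypothalamus (3) and 0.20 for choroid plexus (5). The thalamus markers disagreed: *Slc17a6*, which the study selected from these mice, was at −0.39 ± 0.33 (SE), and the other 3 had higher means in congenics. The most abundant hypothalamic marker, *Nkx2-1*, was higher in congenics at 0.32 ± 0.12 (SE; edgeR unadjusted p = 0.0197, FDR 0.437), and the other hypothalamic markers were under 1 CPM on average. The hypothalamus median ran from −0.31 to 0.31 when single mice were left out, and was −0.20 in lanes 5 and 6 and 0.48 in lanes 7 and 8. In the choroid plexus the median was 0.76 in lanes 5 and 6 and −0.36 in lanes 7 and 8. All 5 of its markers had an unadjusted p under 0.05 for the interaction with lane pair, against 1.88% of all genes. The summed level ran from 21.8 to 131 CPM in B6 mice and from 31.1 to 172 CPM in congenics. Summed GABAergic interneuron markers ran from 304 to 385 CPM in B6 mice and from 304 to 549 CPM in congenics. Their mean log2 CPM was 5.29 ± 0.09 in B6 mice and 5.16 ± 0.07 in congenics (SD, n = 8 each). In this mean, 7 of the 8 congenics lay below the B6 median and 4 lay below every B6 mouse. The interneuron markers disagreed, however: 4 had lower and 2 had higher means in congenics, with log2 fold changes from −0.44 to 0.37. Their summed level was 355 CPM on average in B6 mice and 360 CPM in congenics.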

How the data were processed

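Striatal RNA from 8 congenic and 8 B6 mice was measured as read counts per gene. The authors trimmed the 51st base of 50 bp single-end reads, aligned them with TopHat to mm10 and counted them per gene with HTSeq 0.6.1p1 without regard to strand, and the deposited counts are raw counts per lane. Without strand, reads of a gene and of an antisense partner cannot be told apart. The labels and the study's methods differ in punch diameter, age range and RNA kit, and home cage, a term in the authors' model, was not used here. The authors' own tables of log2 fold changes, p-values and FDRs were not used.

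For each mouse, its lane files were added together (31 lane files, 16 mice) after a chi-square comparison, whose statistic per degree of freedom was 0.997 to 1.05 in 15 mice. Rows that name no gene were left out, and 61.4% to 68.3% of the reads in the tables were on genes. Genes were filtered with filterByExpr, scaled by TMM and tested in R 4.3.3 by edgeR's quasi-likelihood method (version 4.0.16), and p-values were adjusted by Benjamini-Hochberg over all tested genes. SE is the size of the log2 fold change divided by the square root of F. CPM was computed with TMM library sizes, with a prior count of 0.5 on the log2 scale. DESeq2 1.42.0 was an alternative, with other normalizations, no filter, lane pair, replicate block, lane subsets and omission of mice. The steps were tested on simulated counts. Replicates are separate mice.

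All 31 genes are named, with other cortical genes of an unadjusted p under 0.05 and the 4 most abundant of these. A gene named by this rule is not reported here and remains in the counts over its list. *Gnb4* and *Slc17a6* were named after their values were seen. The members and lists were chosen with earlier results of these data known. Positions and promoters are from RefSeq (GRCm38.p6), exon lengths from GENCODE (mm9).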

Additional observations from a re-analysis of the deposited data

Results flagged for a closer look

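Each genotype's 8 values of each of the 31 genes were searched for a mouse far from the others, 62 groups in all. By chance about 1 in 20 groups would be singled out in this way, and 4 of the 62 were. In 3 of them congenic mouse 2 was far above the other congenics: *Emx1* at 4.34 CPM, *Emx2* at 8.03 CPM and *Satb1* at 59.6 CPM. In the fourth, congenic mouse 1 was far below the others, with *Cux2* at 13.1 CPM. Without congenic mouse 2 the log2 fold changes were −0.88 for *Emx1*, −0.12 for *Emx2* and −0.38 for *Satb1*, and without congenic mouse 1 that of *Cux2* was −0.18. No gene of the list differed between the lane pairs at an FDR of 5%.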

How the results depend on the processing

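The median of the 31 genes stayed below 0 under every alternative run, and so did the class medians, except that of the upper layer with the cortical score as a covariate. With that score the medians were −0.12 for the 31 genes, −0.11 for the transcription factors, 0.073 for the upper layer and −0.23 for the genes without a layer class, with 3 of the 31 genes and 576 of all genes at an unadjusted p under 0.05 and 0 genes at an FDR of 5%. In lanes 5 and 6 alone, with 4 mice per genotype, 11 of the 31 genes, 3 of the other cortical genes and 500 of all genes had an unadjusted p under 0.05, and 0 genes passed an FDR of 5%, as in lanes 7 and 8 alone. DESeq2 called 6 of the 31 genes and 25 of all genes at an FDR of 5%, and lane pair as a covariate gave 2 genes. Without congenic mice 1 and 2, chosen after seeing the data, 10 of the 31 genes, 4 of the other cortical genes and 53 of all genes passed an FDR of 5%, and 2349 an unadjusted p under 0.05. In the interaction with lane pair, the second lane alone gave 2 of the 31 genes, and no filter on low counts gave 454 of all genes, at an unadjusted p under 0.05. The cause of these shifts was not tested.

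Replicate numbers were not used to pair the mice in the main fit. Deviations of same-numbered mice had correlations of −0.12 to 0.36, over 0.1 in 3 of 8 pairs, and 2 of 8 mice correlated best with their own number. These values cannot tell whether same-numbered mice shared a litter or cage, which the labels do not give. With the replicate block, 0 genes passed an FDR of 5%, against 1 without it.

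Leaving out 1 mouse at a time gave medians of −0.44 to −0.33 for the 31 genes, −0.54 to −0.39 for the transcription factors, −0.12 to −0.04 for the upper layer, −0.17 to −0.11 for the deep layer, −0.52 to −0.42 for the genes without a layer class and −0.13 to −0.07 for the other cortical genes. Of the 31 genes, 27 to 30 had lower means, 17 to 20 an unadjusted p under 0.05 and 0 to 0 an FDR under 5%. Among the other cortical genes 6 to 12 had an unadjusted p under 0.05 and 0 an FDR under 5%, and among all genes 1107 to 2087 and 1 to 4, with 4 without congenic mouse 1 and 3 without congenic mouse 6. The interaction gave 0 to 2 of the 31 genes and 187 to 707 of all genes, with 2 of the 31 without congenic mouse 2, and with 187 of all genes without B6 mouse 1, 484 without B6 mouse 3 and 707 without congenic mouse 3. In 4 genes, *Rorb*, *Etv1*, *Tle4* and *Ntsr1*, all near 0, the sign changed with the mouse left out. Depth limits *Neurod1* most, at 8 to 91 counts per mouse.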
